A study of Mus musculus with 6 samples.

Results

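The genes described here are 30 genes of the eye lens, taken by gene symbol: 14 crystallins that the arrays measured above background, 2 further crystallins, and genes of lens fibre cells or their regulators. The platform annotation gave 37 of the 45281 probes on the array to 29 of them, and Bfsp1 had no probe under its symbol. Of the 29, 21 had a probe that was detected (detection p under 0.05) on at least 3 of 6 arrays and were tested among 13989 features. The other 8 (Cryge, Crygf, Gja3, Bfsp2, Dnase2b, Birc7, Foxe3 and Maf) were at or near background. The tissue labelled in all samples is retina, which was measured in 3 Vldlr KO samples and in 3 wild-type samples (Jax WT) on Illumina BeadChips, with 1 array per sample. The gene encodes a lipoprotein receptor of the very low density class. The background strain is entered as JAX for both groups, which names no strain, and no age, sex or number of animals per sample is labelled. The labels do not tell whether replicates are different animals, and the p-values therefore rest on sample-to-sample spread that could be technical.

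Crystallins are the soluble proteins that fill the fibre cells of the lens and give it its refractive index. The alpha-crystallins are small heat shock proteins that keep other proteins in solution, whereas beta- and gamma-crystallins share a fold of paired Greek key domains and have no chaperone role of that kind. Fibre cells also carry a water channel (Mip), gap junctions (Gja3), a membrane protein of their own (Lim2) and a cytoskeleton of beaded filaments (Bfsp1 and Bfsp2), and they lose their nuclei with the help of the nuclease Dnase2b. Some crystallins, Cryab among them, are also made outside the lens, in the retina as well.

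Lens transcripts varied among the 6 arrays far more than almost any other transcript, and the variation lay within the groups. Knockout replicate 1 had the highest level of 19 of the 21 tested lens genes, where 17.6% of all features were highest on that array. On the normalized scale wild-type replicate 2 had the lowest level of 17 of them, where 14.1% of all features were lowest on that array. The same 17 genes were highest in knockout replicate 1. For Crygn, Lim2, Lgsn, Grifin and Cryga wild-type replicate 2 was at most 0.16 (log2) below the next array. By bead signal before normalization the first 4 were lowest in knockout replicate 2, and Cryga in wild-type replicate 3. The background-subtracted signal summed over the 14 tested crystallins was 48060, 2859 and 4152 in knockout replicates 1, 2 and 3, against 6855, 1178 and 7512 in wild-type replicates 1, 2 and 3. The groups overlapped: knockout replicate 1 was above every wild-type array, and knockout replicates 2 and 3 lay between wild-type replicate 2 and the other wild-type arrays. Crystallins made up 0.513%, 0.0262% and 0.0343% of the summed signal of all probes on the knockout arrays, against 0.0709%, 0.0106% and 0.0732% on the wild-type arrays. These genes are at once the markers of lens tissue, so lens tissue carried over when the retina was taken out and expression of the genes in the retina itself cannot be told apart here. In bulk tissue, fewer cells of a type and less RNA per cell cannot be told apart either.

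**Figure D1:**
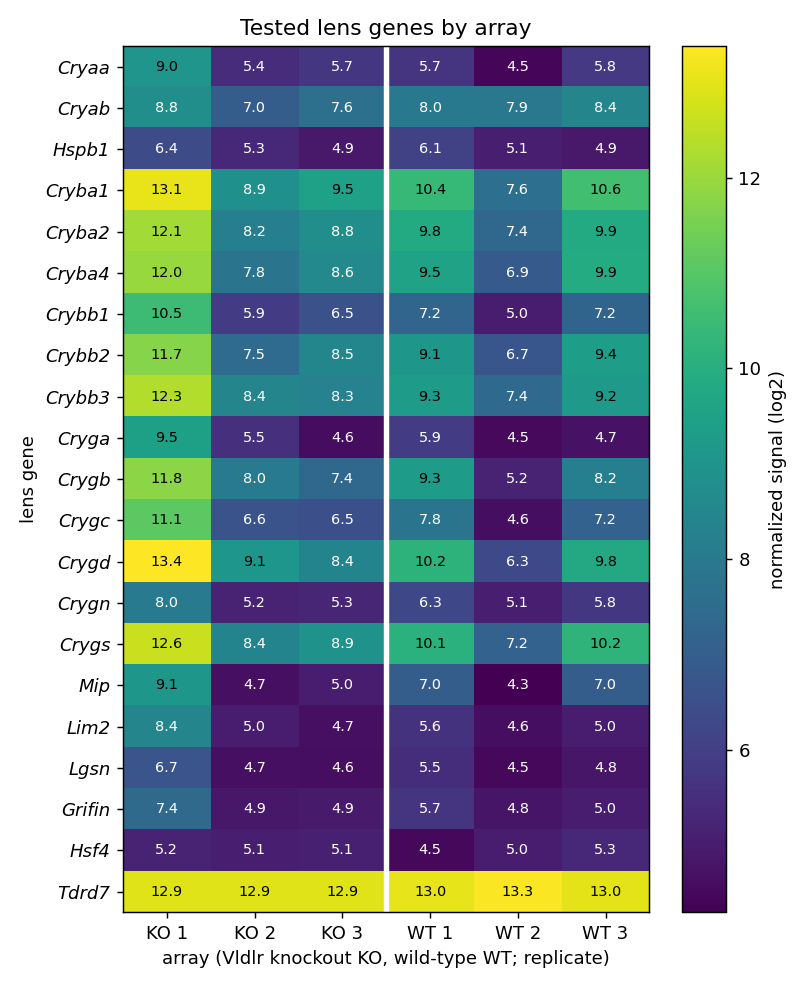
Normalized log2 signal of the 21 tested lens genes (rows) on each array (columns), with the 3 Vldlr knockout arrays left of the white line and the 3 wild-type arrays right of it, and colour and printed number giving the level. The column of knockout replicate 1 is the brightest for 19 of the genes, and that of wild-type replicate 2 the darkest for 17, while the Tdrd7 row hardly changes.

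The promoters of a few crystallins are shown because these genes moved together across the arrays and because the alpha, beta and gamma families are each represented. Each is the window from 250 bases before to 50 bases after the start of the gene, 5′ to 3′, from RefSeq (build GRCm38.p6). Capitals mark the letters TGCTGAC, part of the Maf recognition element. They also mark TATAAA, the core of the box that positions transcription starts. Both were searched on both strands.
Cryaa (chr17:31677681-31677980, + strand): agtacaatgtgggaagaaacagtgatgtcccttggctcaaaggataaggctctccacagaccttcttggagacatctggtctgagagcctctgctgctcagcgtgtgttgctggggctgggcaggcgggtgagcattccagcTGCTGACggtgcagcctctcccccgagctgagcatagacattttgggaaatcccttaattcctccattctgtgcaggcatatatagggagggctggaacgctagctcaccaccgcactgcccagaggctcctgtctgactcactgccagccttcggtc
Cryba1 (chr11:77725244-77725543, - strand): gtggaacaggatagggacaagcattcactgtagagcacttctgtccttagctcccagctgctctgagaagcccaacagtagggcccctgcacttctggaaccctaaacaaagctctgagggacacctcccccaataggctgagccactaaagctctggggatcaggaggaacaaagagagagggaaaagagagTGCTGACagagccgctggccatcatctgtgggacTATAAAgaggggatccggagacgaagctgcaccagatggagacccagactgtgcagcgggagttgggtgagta
Crybb1 (chr5:112255570-112255869, + strand): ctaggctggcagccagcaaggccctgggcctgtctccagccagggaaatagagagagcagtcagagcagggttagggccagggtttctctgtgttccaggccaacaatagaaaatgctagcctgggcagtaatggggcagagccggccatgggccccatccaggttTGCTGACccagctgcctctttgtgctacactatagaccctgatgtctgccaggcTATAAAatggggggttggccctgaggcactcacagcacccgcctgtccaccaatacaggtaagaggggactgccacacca
Crygb (chr1:65082241-65082540, - strand): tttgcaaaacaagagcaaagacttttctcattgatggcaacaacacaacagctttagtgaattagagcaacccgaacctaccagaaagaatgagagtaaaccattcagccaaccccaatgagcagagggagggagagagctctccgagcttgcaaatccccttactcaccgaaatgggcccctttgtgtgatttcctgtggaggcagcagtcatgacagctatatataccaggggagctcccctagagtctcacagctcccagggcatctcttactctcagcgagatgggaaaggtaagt
Crygd (chr1:65063391-65063690, - strand): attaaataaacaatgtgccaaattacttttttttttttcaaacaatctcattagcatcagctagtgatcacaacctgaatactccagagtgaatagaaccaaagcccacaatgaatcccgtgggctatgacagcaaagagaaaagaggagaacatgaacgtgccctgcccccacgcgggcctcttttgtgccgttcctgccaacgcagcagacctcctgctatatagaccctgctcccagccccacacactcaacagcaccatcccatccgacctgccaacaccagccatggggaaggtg
TGCTGAC began at position -108 from the start in Cryaa, at -57 in Cryba1 and at -84 in Crybb1, and no match to these letters or to TATAAA was found in the windows of Crygb and Crygd. TATAAA began at position -23 in Cryba1 and at -30 in Crybb1, and the marked matches do not overlap. RefSeq windows were matched to 27 of the 30 genes. Among 13 tested crystallins with a window, 5 (38.5%) held TGCTGAC, where 4.67% of all 32851 windows did, and 4 (30.8%) held TATAAA, where 13.6% of all did. The core ACAAAG of Sox factor sites was in 5 of the 13 (38.5%; all windows: 18.7%), and GAANNTTC, the paired repeats of a heat shock element, was in 0 of the 13 (all windows: 7.86%) but in the windows of Hspb1 and Dnase2b. A match is a run of letters and not a shown binding site.

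Among the alpha family, Cryaa followed the pattern and its partner Cryab did so only in part. Cryaa, the alpha-crystallin largely restricted to the lens, had bead signals (linear, background included) of 484.1, 84 and 113.4 on the knockout arrays, against 98.6, 69.3 and 106.4 on the wild-type arrays. Its knockout replicate 1 stood alone, and on wild-type replicate 2 it was not above background. Cryab, which is also made in muscle, heart and glia, had signals of 409.9, 166.7 and 295.2 in knockout, against 271.3, 306.5 and 396.1 in wild-type retinas. It was highest in knockout replicate 1 but lowest in knockout replicate 2, not in wild-type replicate 2. After subtraction of background, knockout replicate 1 was 3.2 and 1.53 times knockout replicates 2 and 3. Over wild-type replicates 1, 2 and 3 the ratios were 1.73, 1.47 and only 1.04. Hspb1, a heat shock protein related to the alpha-crystallins, had signals between 81.1 and 112.3 in knockout and between 74.8 and 111.9 in wild-type arrays on its detected probe. Its other probe was detected on 0 arrays.

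All 6 beta-crystallins were detected on all 6 arrays, were highest in knockout replicate 1 and lowest in wild-type replicate 2. Cryba1, an acidic beta-crystallin made from 2 start codons as the A1 and A3 proteins, had signals of 8284.5, 519 and 889.1 in knockout retinas, against 1271.9, 255.6 and 1566.5 in wild-type retinas. Its dimmer probe gave the same order, with 1727.2, 153.8 and 299.9 in knockout and 356.5, 101 and 441.5 in wild-type arrays. After subtraction of background, knockout replicate 1 was 17.8 and 17.3 times knockout replicate 2 on these probes. Over knockout replicate 3 the ratios were 9.99 and 7.12. Crybb2, a major basic beta-crystallin of the adult lens, had signals of 3139.7, 219.7 and 471.1 in knockout retinas, against 542.9, 157.5 and 705.6 in wild-type retinas. Crybb1, another basic beta-crystallin, had the widest range of the 6, with 1328.6, 101.1 and 164.8 in knockout and 184.4, 84.2 and 202.8 in wild-type arrays. On the normalized log2 scale the range over the arrays was 4.78 to 5.51 for the 6 genes, or 27.4-fold to 45.5-fold between the highest and the lowest array. Crybb3 had a further probe that was detected on 0 arrays.

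Crygd, Crygb and Crygc had the widest ranges among the lens genes, whereas Cryga (4.95) and Crygn (2.97) lay below several beta-crystallins. Crygd, a fibre crystallin of the gamma cluster on chromosome 1, had signals of 10271.4, 593.1 and 446.2 in knockout retinas, against 1105.2, 130 and 899 in wild-type retinas. Its range of 7.07 on the log2 scale (134.2-fold) was the largest among the 13989 features, just above that of the unnamed probe ILMN_2540464 (7.065), and its other probe was also highest in knockout replicate 1 (3463) and lowest in wild-type replicate 2 (103.5). Crygb, its neighbour in the cluster, had signals of 3262.4, 297 and 252.3 in knockout retinas, against 607.2, 88.5 and 348.8 in wild-type retinas, with a range of 6.58. Crygc had 1977.7, 138.5 and 163.6 in knockout and 242.6, 75.3 and 196.5 in wild-type arrays, and was not above background in wild-type replicate 2. Cryga was dimmer, at 654.6, 86.3 and 72.4 in knockout and 103.9, 72.1 and 69.5 in wild-type arrays, and was detected on 2 of 3 arrays in each group. The genes of this cluster are close copies of one another, and how far their probes share targets is not known here.

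Crygs, a gamma-type crystallin that lies outside the cluster and is made in the adult lens, followed the beta-crystallins in size, with signals of 6008.6, 383.8 and 617 in knockout and 1037.3, 197.9 and 1200.1 in wild-type retinas. Crygn, a form between the beta and gamma families that is also made in the retina of the mouse, had 262.3, 77.2 and 94.4 in knockout and 119.3, 85.4 and 103.7 in wild-type retinas on its brightest probe. Its range of 2.97 was the smallest of the gamma family, and its 3 probes were all highest in knockout replicate 1. Cryge and Crygf were detected in knockout replicate 1 alone, at signals of 70.6 and 78.

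**Figure D2:**
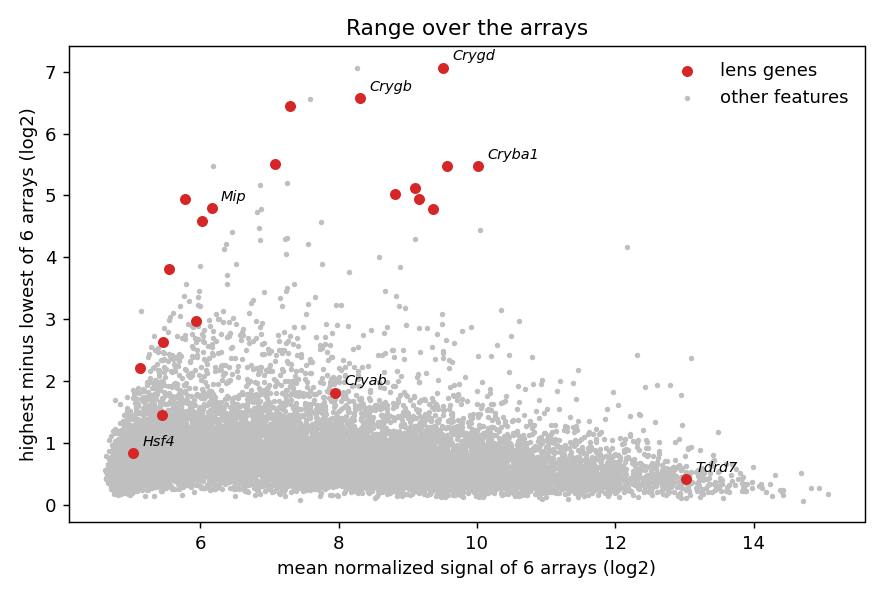
Highest minus lowest of the 6 arrays (log2, vertical) against the mean normalized signal (log2, horizontal), with the 21 tested lens genes in red and all other tested features in grey. Most lens genes lie above the grey cloud, Crygd at 7.07, whereas Hsf4 (0.84) and Tdrd7 (0.41) lie inside it.

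Fibre cell genes of low signal showed the same high array where they could be measured. Mip, the lens water channel aquaporin 0, had signals of 503.7, 64.1 and 85 in knockout and 161.2, 60.9 and 179.2 in wild-type retinas, and was detected on 2 of 3 arrays in each group. Knockout replicate 1 was high, wild-type replicates 1 and 3 were next, and the other arrays were near background. Lim2, a fibre membrane protein, had 329.1, 71.7 and 74.5 in knockout and 96.4, 75 and 76.5 in wild-type arrays. Grifin, a galectin-related protein of the lens, and Lgsn, the lens relative of glutamine synthetase called lengsin, reached 187.8 and 129.4 in knockout replicate 1, against at most 83.7 and 74 in the other knockout arrays and at most 99 and 93 in wild-type arrays. The connexin Gja3 and the 3 probes of Dnase2b were detected on 0 arrays, the beaded filament gene Bfsp2 on 1 wild-type array only, and the apoptosis inhibitor Birc7 on 1 array of each group. Knockout replicate 1 thus had 24 of the 29 genes detected, knockout replicates 2 and 3 had 19 each, and wild-type replicates 1, 2 and 3 had 21, 14 and 22.

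Of the 4 regulators only Tdrd7 was well above background, and it did not follow the fibre genes. Hsf4, the heat shock factor of the lens, had signals of 76.2, 73.8 and 88.2 in knockout and 71.8, 84.2 and 87.8 in wild-type arrays, close to background throughout. Tdrd7, an RNA granule protein whose loss causes cataract in mice and people, was bright on every array, at 7122.7, 8155.6 and 8661.8 in knockout and 8047.3, 10302.4 and 7602.2 in wild-type retinas. Its normalized log2 level hardly changed, with a range of 0.41 over all arrays and 12.92, 12.94 and 12.92 on the knockout arrays. Wild-type replicate 2 was the highest, at 13.32. Foxe3, the forkhead factor of the lens epithelium, was detected on 0 arrays, and Maf, which activates crystallin genes in fibre cells, on 1 knockout array.

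Set against all features, the ranges of the lens genes were at the far end. For 8 of the 21 (Cryaa, Cryga, Crygc, Mip, Lim2, Lgsn, Grifin and Hsf4) the lowest array was not above background. Their ranges are therefore lower bounds, apart from that of Hsf4, which was close to background on every array. The median range, that of Mip and so itself a lower bound, was 4.80 on the log2 scale, against 0.70 over all features, and 18 of the 21 lay above the 95th percentile of 1.68. Of the 10 features with the largest range, 6 were lens genes, and of the 20 largest, 13. The SD within a group was larger in knockout than in wild-type arrays for 19 of the 21, with medians of 2.22 in knockout and 1.08 in wild-type, against 0.181 and 0.255 over all features. The knockout SD includes knockout replicate 1, which lay above the mean of the other knockout arrays by a median of 3.76 over these genes. A gap of more than 1 on the log2 scale between knockout replicate 1 and every other array was found for 18 features (0.129%), and 17 of these were lens genes. The last was a probe with no gene name here (ILMN_2422014), at 8.38 in knockout replicate 1 and between 6.60 and 7.25 in the other knockout arrays, against 6.47 to 7.06 in wild-type arrays. By contrast, wild-type replicate 2 was more than 1 below every other array for 109 features, of which 5 were lens genes and 104 were not. Low values on that array were therefore not confined to lens genes, and no such count was made for the other arrays.

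**Figure D3:**
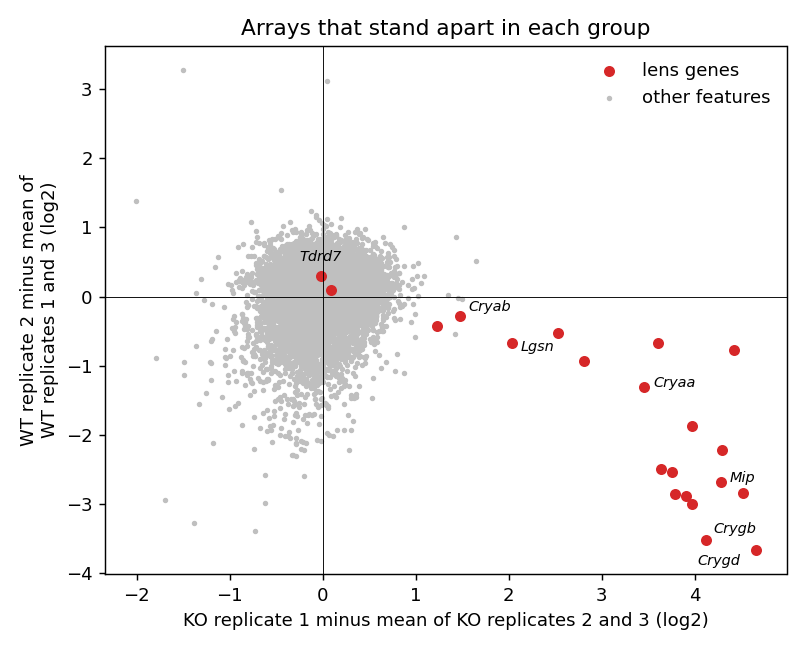
Knockout replicate 1 minus the mean of knockout replicates 2 and 3 (log2, horizontal) against wild-type replicate 2 minus the mean of wild-type replicates 1 and 3 (log2, vertical), for the 21 lens genes (red) and all other tested features (grey). Lens genes run to the lower right, Crygd to 4.65 and -3.67, outside the grey cloud around 0, and Tdrd7 lies inside it.

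With this spread, the comparison of Vldlr knockout with wild-type retina found no lens gene that passed the test. By limma, 0 of the 21 were higher and 0 were lower at an adjusted p of 0.05, where 0.758% of all features were higher and 1.74% lower, and 0 of the 21 had an unadjusted p under 0.05, where 12.4% of all features did. Adjusted p ran from 0.535 to 0.969. The median change was 0.83 on the log2 scale, against 0.02 over all features, and 19 of the 21 changes were positive. Crygd averaged 10.3 ± 2.71 in knockout and 8.76 ± 2.13 in wild-type arrays (log2, SD, n = 3 each), a change of 1.52 (SE 1.34, limma adjusted p = 0.694). Cryaa averaged 6.73 ± 2.0 in knockout and 5.32 ± 0.757 in wild-type arrays (log2, SD, n = 3 each), a change of 1.41 (SE 0.839, limma adjusted p = 0.535). Mip differed by 0.16 (SE 1.14, adjusted p = 0.969), Cryab by -0.31 (SE 0.399, adjusted p = 0.793) and Crybb2 by 0.83 (SE 1.04, adjusted p = 0.791). Tdrd7 alone had groups that did not overlap, a pattern found in 18.6% of all features, with 12.9 ± 0.0108 in knockout and 13.1 ± 0.175 in wild-type arrays (log2, SD, n = 3 each) and a change of -0.20 (SE 0.163, adjusted p = 0.677).

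The direction of the list rested on the arrays at its ends. Without knockout replicate 1 the median change of the 20 genes then tested was -0.26, and 0 passed (1 had an unadjusted p under 0.05), where 1.51% of all features passed in either direction. Without wild-type replicate 2 it was 0.17 over 21 genes, again with 0 passing. Leaving out both, which by construction takes away the highest knockout and the lowest wild-type array, gave a median change of -0.89 over 20 genes. In that setting, chosen after the values were seen, Mip passed as lower in the knockout arrays (-2.19, limma adjusted p = 0.0129), where 0.485% of all features passed as lower. An unadjusted p under 0.05 was found for 13 of the 20 genes and for 5.67% of all features. Most of these genes moved together across the arrays, so the 13 are not separate results. Because the arrays were left out for their lens values, the setting is no test of the genotype. The remaining signals of Mip were 64.1 and 85 in knockout and 161.2 and 179.2 in wild-type arrays, and the first of these was not above background. Crygs was at -1.48 (adjusted p = 0.0908) and Crygd at -1.24 (adjusted p = 0.259) in the same setting.

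Gamma-crystallins of the cluster and beta-crystallins did not keep a constant ratio between arrays. This was looked at after the values were seen and is given as a description. After subtraction of background, knockout replicate 1 was 9.24 to 57.2 times wild-type replicate 3 on the 5 probes of Cryga, Crygb, Crygc and Crygd. The value of 57.2 was that of Cryga, whose signal of 69.5 in wild-type replicate 3 (detection p 0.0449) was close to background. The other gamma probes lay at 9.24 to 14, and the 7 probes of beta-crystallins at 4.09 to 8.83. Over knockout replicate 3, knockout replicate 1 was 17.2 to 26.8 times on 4 gamma probes and 7.12 to 13 times on the beta probes. Over wild-type replicate 2 it was 97.2 to 166 times on the 3 gamma probes detected there and 27.5 to 80.3 times on the beta probes. These ranges did not overlap. Over knockout replicate 2 they did (13.4 to 27.6 and 14.4 to 28.9), as they did over wild-type replicate 1 (5.95 to 17.1 and 5.1 to 11). Within the wild-type group, replicate 1 was above replicate 3 on 5 of 5 gamma probes and on 0 of 7 beta probes. Within the knockout group the gamma probes were mixed, with replicate 2 above replicate 3 on 2 of 4 of them (ratios of 0.83 to 1.41) and on 0 of 7 beta probes. The background-subtracted signals are not scaled between arrays. The summed signal of the retinal markers given below was 103800 in knockout replicate 2 and 128000 in knockout replicate 3. On the normalized scale the mean difference of wild-type replicate 1 minus replicate 3 was 0.81 over the 4 gamma genes and -0.13 over the 6 beta genes. That of knockout replicate 2 minus replicate 3 was 0.57 and -0.59. The medians of these differences over all features were 0.09 and 0.07. On this scale all 4 cluster genes were positive in both differences: Crygd was at 0.41 and 0.68, Crygc at 0.62 and 0.07, Crygb at 1.06 and 0.63, and Cryga at 1.14 and 0.92, although Cryga was at or near background on some of these arrays. The beta genes were not uniform: Crybb2 was at -0.31 and -1.003, whereas Crybb3 was at 0.13 and 0.09. Crygs had differences of -0.13 and -0.54, and Cryaa of -0.13 and -0.28.

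**Figure D4:**
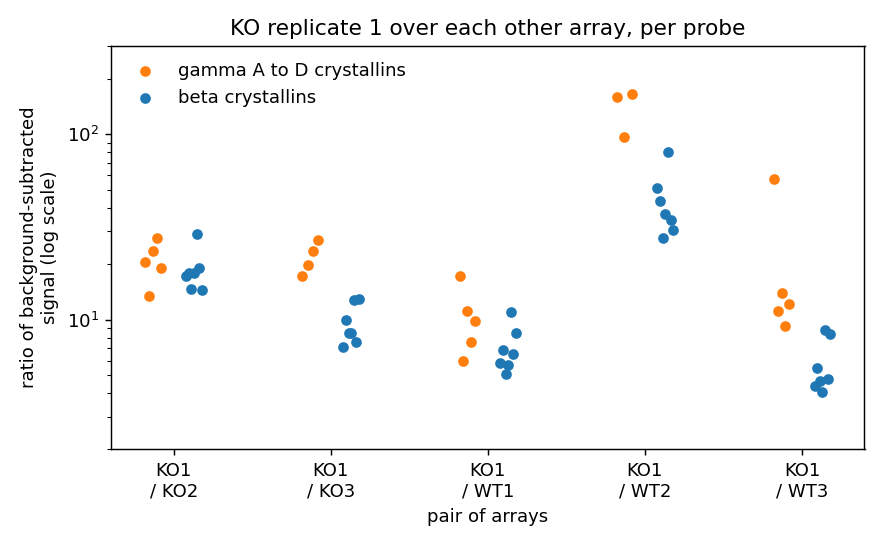
Background-subtracted signal of knockout replicate 1 over that of each other array (log scale), 1 point per probe detected on both arrays, for gamma-crystallins A to D (orange) and beta-crystallins (blue). All points lie above 4, and the 2 families are apart over KO3, WT2 and WT3 but not over KO2 and WT1.

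Other lens genes, and genes that carry the crystallin name from other families, showed no such gap in knockout replicate 1. Of 20 further lens genes 12 were tested, and 0 of the 12 were more than 1 above every other array there. Their median range was 0.71, and 3 were highest in knockout replicate 1, where 17.6% of all features were. By limma 0 passed in either direction. An unadjusted p under 0.05 was found for 12.4% of all features and for 2 of the 12. These were Mafg, a small Maf protein, with a change of 0.49 (SE 0.169, adjusted p = 0.264), and Fabp5, a fatty acid binding protein, at 0.68 (adjusted p = 0.396). The ephrin Efna5 was at -0.36 and the water channel Aqp5 at 0.44. Of the crystallin-named enzymes and relatives, 6 were tested, 0 passed by limma and 0 had an unadjusted p under 0.05. Cryz, a quinone reductase recruited as a crystallin in guinea pig lens, differed by 0.21 and had a range of 0.72. Crym, mu-crystallin, a thyroid hormone binding protein, was named after its values were seen and had a log2 level of 10.3 to 10.9 in knockout and 10.4 to 10.9 in wild-type arrays.

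Markers of the retina and of its other neighbours were set beside the lens genes. Of 19 retinal markers with a probe 18 were tested, and their summed signal was 95120 to 128000 in knockout and 95420 to 101100 in wild-type arrays. Of these 18, 1 passed as higher (Arr3, cone arrestin, by 0.91, limma adjusted p = 0.0144), where 0.758% of all features did. Pigment epithelium markers summed to 2015 to 4107 in knockout and 2526 to 3530 in wild-type arrays. By limma 0 of 9 passed, and 1 had an unadjusted p under 0.05 (all features: 12.4%). The summed signal of cornea markers was lowest in knockout replicate 1: 4 tested genes summed to 90.2, 348.8 and 310.4 in knockout replicates 1, 2 and 3, against 177.7, 1234 and 102.7 in wild-type replicates 1, 2 and 3. Of the single genes, Krt14 and Krt15 were lowest in knockout replicate 1, whereas Krt12 and Aldh3a1 were lowest in wild-type replicate 3. Krt12, the keratin of the corneal epithelium, had a log2 level of 9.40 in wild-type replicate 2. Krt15 passed as lower in knockout (-1.13, limma adjusted p = 0.0299), where 1.74% of all features did. Krt15 was above background on only 1 of 3 knockout arrays. The summed signal of ciliary body and iris markers was lower in all knockout arrays, at 301.8 to 404 in knockout and 1053 to 1274 in wild-type arrays. Of these markers 6 of 7 passed as lower, where 1.74% of all features did. Des did not, with a change of 0.12 (limma adjusted p = 0.892). The list was chosen with earlier results of these data known. Optc, opticin of the ciliary epithelium, was at 4.80 ± 0.0339 in knockout and 7.74 ± 0.0189 in wild-type arrays (log2, SD, n = 3 each), a change of -2.94 (SE 0.149, limma adjusted p = 1.46e-05). It was above background on only 2 of 3 knockout arrays. The part of these tissues in the lens results was not tested.

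**Figure D5:**
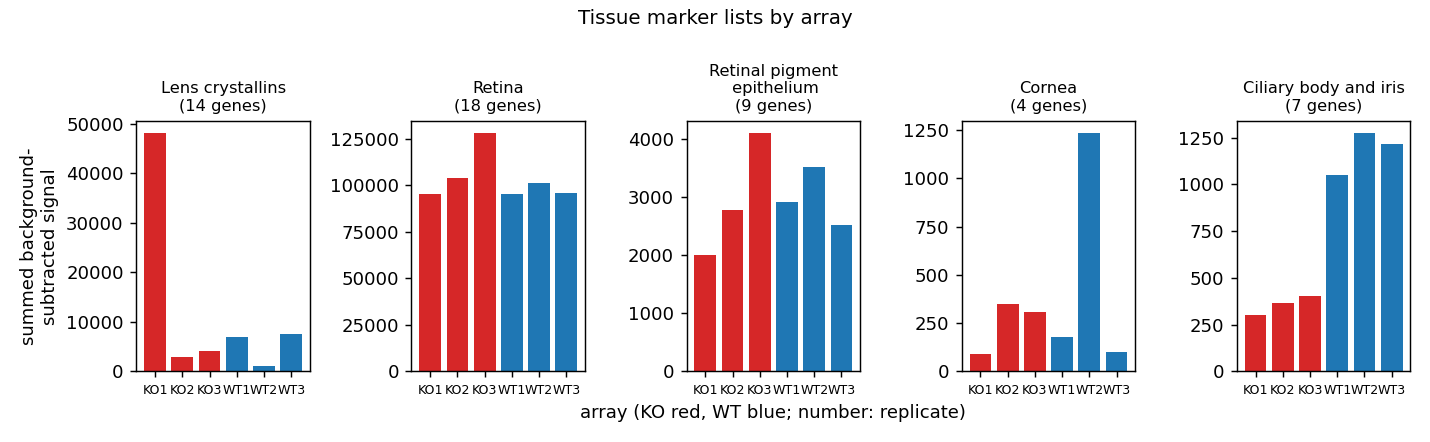
Summed background-subtracted signal of 14 crystallins and of tested markers of retina, pigment epithelium, cornea, and ciliary body and iris, with 1 bar per array (knockout red, wild-type blue) and a vertical axis of its own from 0 in each panel. The crystallin bar of knockout replicate 1 stands at 48060 against 1178 to 7512 in the other arrays of both groups, the cornea bar is highest in wild-type replicate 2, and ciliary body and iris bars are low in all 3 knockout arrays.

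The arrays were alike in the number of probes detected. Between 18710 and 20974 probes per array (41.3% to 46.3%) were detected, and knockout replicate 1 was inside that range with 19326. On its brightest probe Vldlr averaged 10.26 ± 0.128 in knockout and 11.44 ± 0.207 in wild-type arrays (log2, SD, n = 3 each; limma adjusted p = 0.00751). The files do not place this probe within or outside the deleted sequence. The number of arrays limits the precision.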

How the data were processed

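RNA of 3 Vldlr KO and 3 wild-type retina samples was measured on 1-colour Illumina arrays. Per the labels' protocols RNA was extracted with a Qiagen RNeasy kit and labelled with the Ambion TotalPrep kit, and per the submitters' processing notes GenomeStudio was used (version not given in the sources used here). The deposited non-normalized table holds linear bead intensity with a deposited detection p-value per probe. The authors' normalized intensity values equal it minus 57.2 to 69.1 per array, within 0.1. No per-sample column was left out.

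Intensities were normalized here with neqc of limma 3.58.1 (R 4.3.3): normexp background correction with controls inferred from detection p, offset 16, quantile normalization and log2. Dim probes are compressed by the offset. Probes with detection p under 0.05 on at least 3 arrays were tested (19921), and a gene stands by its brightest probe, which gave 13989 features. Groups were compared with limma (lmFit and eBayes, 2-sided, adjusted p by Benjamini-Hochberg over all features). Ratios between arrays and summed signals use the background-subtracted intensities, which were not scaled between arrays. Gene symbols come from the platform annotation (34885 probes with 1 symbol, 18 with several, 10378 with none), and symbols of 29 lens genes matched the RefSeq gene table. On simulated data for this comparison (19921 probes, 200 changed) 9 of 161 calls were false. The named genes are all 30 lens genes, from each other list the called genes and up to 4 with the smallest p, Vldlr, and features that stood apart in knockout replicate 1, and a few genes at background or in a list are named outside this rule after their values were seen. Members and lists were chosen with earlier results of these data known. Figures were drawn with matplotlib 3.10.9.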

Additional observations from a re-analysis of the deposited data

How the results depend on the processing

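Over 19 alternatives to the processing (other normalizations, offset, filters and handling of several probes, variance models, array weights, an adjusted p of 0.10, a replicate block, and leaving out arrays), 0 lens genes passed as higher and 0 as lower, apart from 1 that was lower (Mip) without knockout replicate 1 and wild-type replicate 2 together. Among 388 values of single genes 50 changed sign: 17 without both of these arrays, 13 without knockout replicate 1, 9 with the replicate block, 6 without wild-type replicate 2, and the rest in 4 other settings. The count of all features that passed was 350, and it was 170 in the authors' table, 961 with array weights, 157 to 325 with an array left out in turn, and 84 without both arrays. The median change ran from -0.26 to 1.53 over the arrays left out in turn, with the negative value without knockout replicate 1, from 0.47 to 0.96 over normalizations, offset, filters and handling of probes, and was 0.62 with array weights. Knockout replicate 1 minus the mean of the other knockout arrays had a median over the lens genes of 3.76, and of 2.81 with no filter to 3.84 with a strict filter over the processing choices, and of 3.38 to 3.94 with another array left out. With no filter 23 of 29 genes were highest in knockout replicate 1, and with a strict filter 13 of 14. The opposite signs of the mean differences of gamma and beta genes on the normalized scale held in all 8 of these alternatives. On background-subtracted signals, which are not scaled between arrays, it did not hold for every gamma probe in the knockout pair (2 of 4). Sample titles share the numbers 4 and 5 between groups, and the deviations of same-numbered arrays from their group means correlated at -0.0379 and -0.22 over features, so they were not treated as pairs. With the number as a replicate block the median change was -0.0014, and 0 lens genes passed by limma (1 at an unadjusted p under 0.05). Knockout replicate 1 and wild-type replicate 3 share no number with an array of the other group. In that setting the changes, and the 9 sign changes, therefore rested on the other arrays alone. The ranges of 8 genes whose lowest array was not above background are lower bounds, apart from that of Hsf4, which was close to background on every array.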
